A study of Mus musculus with 12 samples.

Results

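The epidermal differentiation complex is a cluster of genes whose proteins build and crosslink the outer shell of dying keratinocytes. Its genes were taken here as every non-control probe whose annotated transcript accession maps to a mouse gene symbol that starts with Sprr, Lce or S100a, or that is Ivl, Lor, Flg, Flg2, Rptn, Hrnr, Tchh, Tchhl1 or Crnn. The rule found 64 probes of 55 genes: 14 Sprr, 18 Lce, 15 S100a and 8 single genes. Of these, 61 probes of 53 genes entered the tests, among 25108 features tested in all. Sprr2k and Sprr3 were above background on 0 arrays and were left out of the tests. For Flg, Lce1j, Lce3d, Lce6a, S100a11-ps, Sprr2a1, Sprr2a3 and Sprr2c-ps the rule found no probe.

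When a keratinocyte leaves the basal layer it replaces its plasma membrane with a cornified envelope, a protein sheet joined by transglutaminases. Involucrin (Ivl) is laid down early as a scaffold, loricrin (Lor) becomes the main bulk, and the small proline-rich (Sprr) and late cornified envelope (Lce) proteins bridge and line the sheet. The fused-type S100 proteins (Flg2, Hrnr, Rptn, Tchh, Tchhl1, Crnn) carry an S100 domain followed by long repeats and bind to keratin filaments or to the envelope. The S100a genes of the same locus encode small calcium-binding proteins with varied roles. Sprr1, Sprr2 and Lce3 genes are known for induction in wounded or inflamed skin, whereas Lce1 and Lor mark the normal interfollicular surface and trichohyalin (Tchh) marks the inner root sheath of the hair.

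Each of the 12 arrays was a different condition: genotype Eng+/- or wt, at 50 d or 90 d, with no treatment named in the label, with clp, or with tpa. Endoglin, the product of Eng, assists the binding of TGF-beta and BMP ligands to their receptors, and Eng+/- carries a single working copy; the labels do not say where the gene is altered. Cy5 carried the sample and Cy3 a pool of all conditions on every array, so each value below is the log2 ratio of sample over pool. What clp and tpa stand for, what the days count from, and how many animals or cultures a sample held are not given in the labels. In the titles of the wt arrays, those of both days that name no treatment also read pool. The labels call the material E14 embryonic stem cells, and the series title speaks of the hair follicle cycle; the series text describes Cy3-labelled wild-type RNA and exchanged dyes, which the labels of these arrays do not. Of 6 embryonic stem cell genes, Nanog, Esrrb and 1 of 3 Tdgf1 probes were above background on all 12 arrays, Sox2 on 7, Pou5f1 on 1 and Zfp42 on 0, and Krt14 and Krt10 of the epidermis were above background on all 12.

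Arrays with no named treatment, clp arrays and tpa arrays were on 1 slide each, so slide and treatment cannot be told apart. The median Cy5 signal ran from 166.5 to 573 and the median Cy3 signal from 99 to 140 over the arrays, and 65.67% to 77.68% of probes were well above background. Eng itself was lower in the Eng+/- array in 5 of 6 genotype pairs, with log2 differences of -1.61 to -0.28, and higher by 0.63 in the tpa pair at 50 d. Over the 6 pairs the difference was -0.77, with adjusted p = 0.331 by limma, and arrays are named by their labels throughout. Hair shaft genes (keratins and their regulators, 13 tested) stood far below the pool on 3 arrays, with medians of -5.34 (Eng+/-, no named treatment, 90 d), -4.77 and -4.60 (tpa, 50 d, Eng+/- and wt). On the other 9 arrays the same median ran from -1.65 to 0.73. In RNA from a whole sample, fewer cells of a type and less RNA per cell cannot be told apart.

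All members with a RefSeq start site lay on chromosome 3 of the mouse build GRCm38.p6: 47 of the 53 tested genes matched 51 promoter windows of 300 bases, from 250 before to 50 after the start. The 4 motifs searched, each on both strands, were TGANTCA (the AP-1 motif), TGACNNNGC (an Nrf2 type motif), AACNGGTT (a Grainyhead-like motif) and TATAAA. A match describes the letters only. The AP-1 letters were in 33.3% of the members' windows and in 7.81% of all 32851 windows. They were in 8 of 10 Sprr windows (80%), 6 of 8 single-gene windows (75%), 3 of 16 S100a windows (18.8%) and 0 of 17 Lce windows. TATAAA was in 80% of Sprr windows, 62.5% of single-gene windows, 31.2% of S100a windows and 17.6% of Lce windows, against 13.6% of all windows. TGACNNNGC was in 17.6% of members' windows and 12.4% of all windows, and AACNGGTT was in those of Rptn, S100a3 and S100a9 alone (5.88%, against 2.09% of all windows). In the Sprr2 genes with the AP-1 letters these began between positions -198 and -193 from the start site; windows of neighbouring paralogs share descent (median identity of 70% among Sprr2 pairs and 69.7% among Lce1 pairs), so they are not separate observations. The 250 bases before the start are printed 5′ to 3′ for some of the genes in the results, from RefSeq on GRCm38.p6, with matches to the 4 motifs in capitals. Sprr2a2, S100a1, S100a7a and Lor, which passed a test below, are not printed. The windows of Sprr2a2, S100a1 and S100a7a held none of the 4 motifs, and that of Lor held the AP-1 letters and TATAAA. In Sprr1a the first capital stretch holds an AP-1 match and an Nrf2 type match that overlap.
Sprr1a, chr3:92485882-92486131, minus strand: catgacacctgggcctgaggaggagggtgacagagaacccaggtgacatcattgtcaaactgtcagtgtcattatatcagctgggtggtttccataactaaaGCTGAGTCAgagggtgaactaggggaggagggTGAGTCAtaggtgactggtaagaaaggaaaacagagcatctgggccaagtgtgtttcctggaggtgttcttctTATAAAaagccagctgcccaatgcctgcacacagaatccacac
Sprr2b, chr3:92316455-92316704, plus strand: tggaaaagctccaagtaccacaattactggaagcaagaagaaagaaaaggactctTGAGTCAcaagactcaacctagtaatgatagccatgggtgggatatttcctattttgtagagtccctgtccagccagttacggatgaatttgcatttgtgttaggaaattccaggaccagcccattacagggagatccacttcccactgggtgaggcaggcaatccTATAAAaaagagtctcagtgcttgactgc
Sprr2d, chr3:92338890-92339139, plus strand: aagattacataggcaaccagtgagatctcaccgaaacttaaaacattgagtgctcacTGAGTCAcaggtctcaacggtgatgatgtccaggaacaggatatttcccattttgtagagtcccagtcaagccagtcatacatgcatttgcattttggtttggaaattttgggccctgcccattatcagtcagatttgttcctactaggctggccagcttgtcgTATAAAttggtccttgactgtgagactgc
Lce1h, chr3:92765066-92765315, minus strand: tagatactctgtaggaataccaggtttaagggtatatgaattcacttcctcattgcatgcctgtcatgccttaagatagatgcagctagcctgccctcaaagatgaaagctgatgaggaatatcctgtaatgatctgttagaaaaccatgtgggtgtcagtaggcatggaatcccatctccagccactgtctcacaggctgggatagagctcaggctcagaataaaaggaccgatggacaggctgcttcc
Lce1k, chr3:92807892-92808141, minus strand: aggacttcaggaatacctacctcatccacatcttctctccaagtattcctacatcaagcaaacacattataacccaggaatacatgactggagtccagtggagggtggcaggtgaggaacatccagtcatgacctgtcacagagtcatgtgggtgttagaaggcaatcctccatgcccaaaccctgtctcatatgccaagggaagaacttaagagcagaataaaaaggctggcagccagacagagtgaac
S100a8, chr3:90668821-90669070, plus strand: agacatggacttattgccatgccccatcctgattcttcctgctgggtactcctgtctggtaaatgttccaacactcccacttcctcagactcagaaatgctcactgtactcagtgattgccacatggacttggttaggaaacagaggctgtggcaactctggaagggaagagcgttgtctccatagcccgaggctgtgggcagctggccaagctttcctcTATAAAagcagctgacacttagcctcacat
S100a9, chr3:90695722-90695971, minus strand: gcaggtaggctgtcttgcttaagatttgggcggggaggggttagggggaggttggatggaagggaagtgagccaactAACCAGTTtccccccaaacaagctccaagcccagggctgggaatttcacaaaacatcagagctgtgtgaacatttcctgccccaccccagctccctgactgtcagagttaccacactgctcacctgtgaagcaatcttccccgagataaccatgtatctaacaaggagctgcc
Rptn, chr3:93393449-93393698, plus strand: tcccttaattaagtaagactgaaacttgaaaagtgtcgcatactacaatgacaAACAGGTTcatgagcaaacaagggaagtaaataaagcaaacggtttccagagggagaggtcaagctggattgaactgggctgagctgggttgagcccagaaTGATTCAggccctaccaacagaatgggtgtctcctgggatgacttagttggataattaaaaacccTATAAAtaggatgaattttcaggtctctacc
Crnn, chr3:93144539-93144788, plus strand: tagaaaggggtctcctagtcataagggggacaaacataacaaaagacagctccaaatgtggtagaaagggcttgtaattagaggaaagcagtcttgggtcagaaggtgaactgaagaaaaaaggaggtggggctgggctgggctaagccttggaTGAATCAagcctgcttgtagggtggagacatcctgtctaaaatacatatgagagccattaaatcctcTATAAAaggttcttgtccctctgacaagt
The first 3 sequences show examples of proline-rich genes with AP-1 letters upstream of a TATA box. Lce1h and Lce1k, whose values were nearly parallel over the arrays, hold none of the 4 motifs in this stretch and share 65.3% of the 300 bases. In the printed stretch S100a8 holds TATAAA and S100a9 holds AACNGGTT, and S100a9 has TATAAA at position 0, just past it. Rptn and Crnn carry the AP-1 letters at the same position, -96 from the start site.

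Members varied widely from array to array. The range of a gene over the 12 arrays had a median of 2.05 log2 units among the 53 members, against 0.86 over all features tested. By subfamily the median range was 2.59 for Sprr, 2.02 for Lce, 1.60 for S100a and 2.49 for the single genes. Of the members, 50 were above background on all 12 arrays and 21 were saturated in Cy5 on at least 1 array. Saturated member spots numbered 30 on the arrays with no named treatment, 40 on the clp arrays and 67 on the tpa arrays, and 14 genes were saturated on all 4 tpa arrays (9 Lce1 genes, 4 S100a genes and Lor), where the sample signal has only a lower limit.

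**Figure D1:**
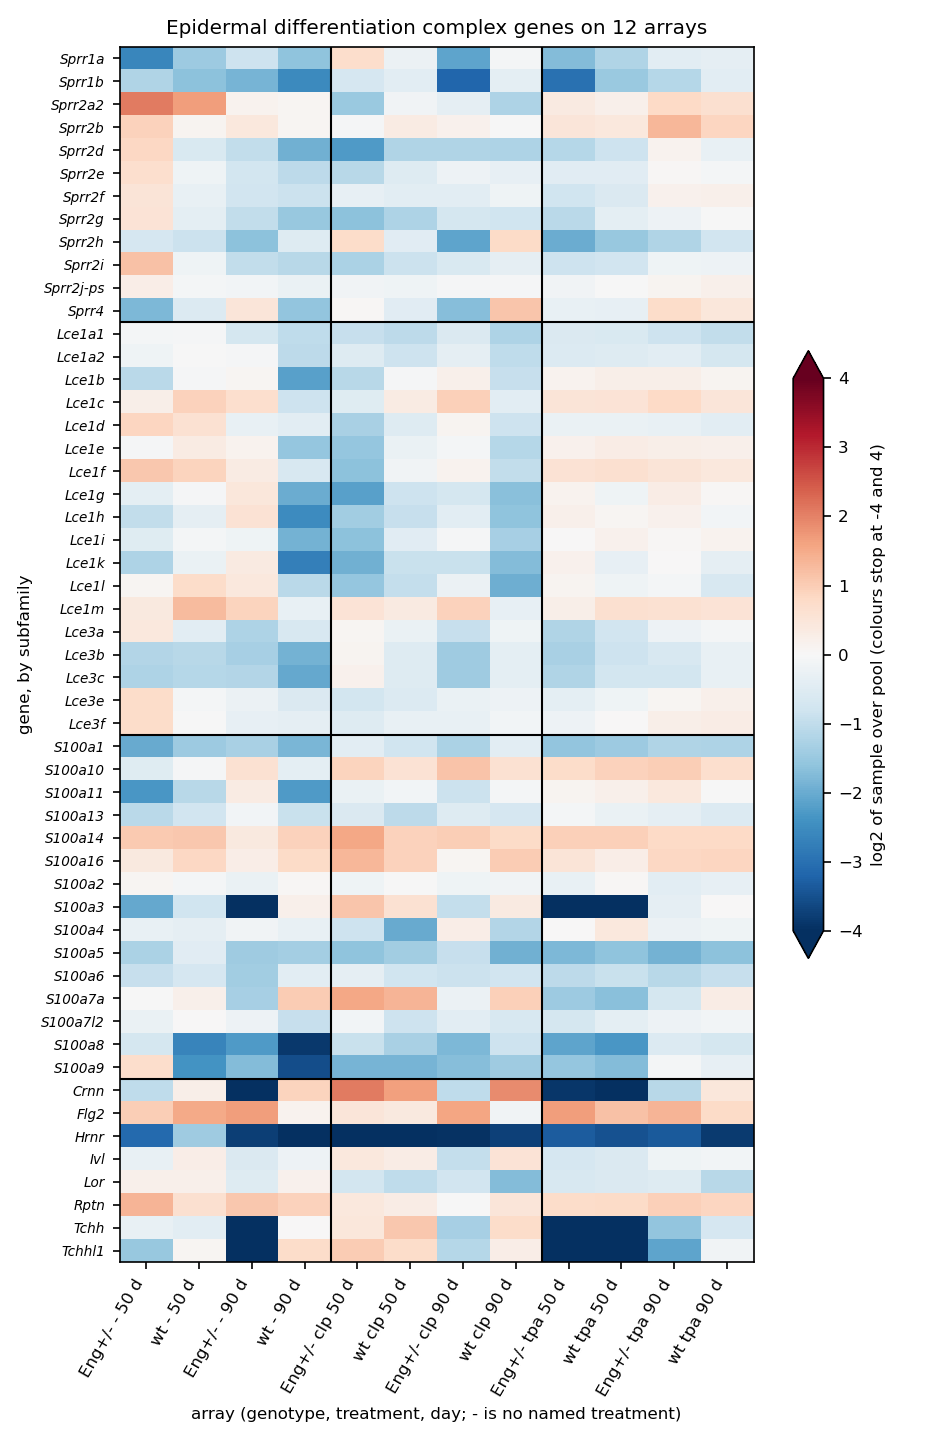
Log2 ratio of sample over pool (colour) for the 53 tested genes (rows, by subfamily) on the 12 arrays (columns, by treatment, day and genotype). The darkest cells are Tchh, Tchhl1, Crnn and S100a3 on the 3 arrays low in hair shaft genes, and Hrnr, which was at -1.41 or lower on every array.

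The treatments were compared over the 4 matched pairs of genotype and day, and values and calls are those with loess unless another scaling is named. With clp, S100a1 rose and Sprr2a2 and Rptn fell against no named treatment, and Lor passed the same test on saturated spots. Against tpa, clp arrays had more S100a7a and less Sprr2a2 and Sprr2b. With tpa against no named treatment no member passed. The counts were 4 of 53 members for clp (7.55%), beside 7.73% of all features, and 3 of 53 for clp minus tpa (5.66%), beside 8.18%, so in both comparisons the members were called at a share near the background. For tpa limma called 0 of 53, beside 0.131% of all features. At an unadjusted p under 0.05 there were 7 members (13.2%) and 26% of all features. The clp and tpa comparisons share their control arrays.

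The direction over the members depended on the scaling of the arrays in part. With loess, 24 members were higher and 29 lower with clp (median difference -0.16, all features 0.01), and with each array centred on its median 36 were higher and 17 lower. Median centring moved the median of all features by 0.24 for clp, by 0.34 for tpa and by 0.24 for the day difference without named treatment. With loess 1 of the calls for clp was higher and 3 were lower. With median centring 8 were higher and 0 lower (Sprr1a, S100a6, S100a10, S100a3, Tchh, S100a7a, Tchhl1 and Crnn), none of them among the 4 called with loess, beside 6.36% of all features. For clp minus tpa the split was 1 higher and 2 lower with loess and 5 higher and 4 lower with median centring (Tchh, Tchhl1, Crnn, S100a3 and S100a7a higher; Sprr2b, Sprr2g, Lce3e and Lce3f lower), beside 6.49% of all features. For tpa median centring called S100a10 and S100a11 (4.14% of all features). With the authors' signals 7 members were called for clp, beside 16.3% of all features. With Cy5 alone 7 were called for clp, beside 24.7%, and 6 for clp minus tpa, beside 9.36%. The sign was the same under loess, median centring, the authors' processed signals and Cy5 alone for 36 of 53 members in clp, 30 in tpa and 47 in clp minus tpa.

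**Figure D2:**
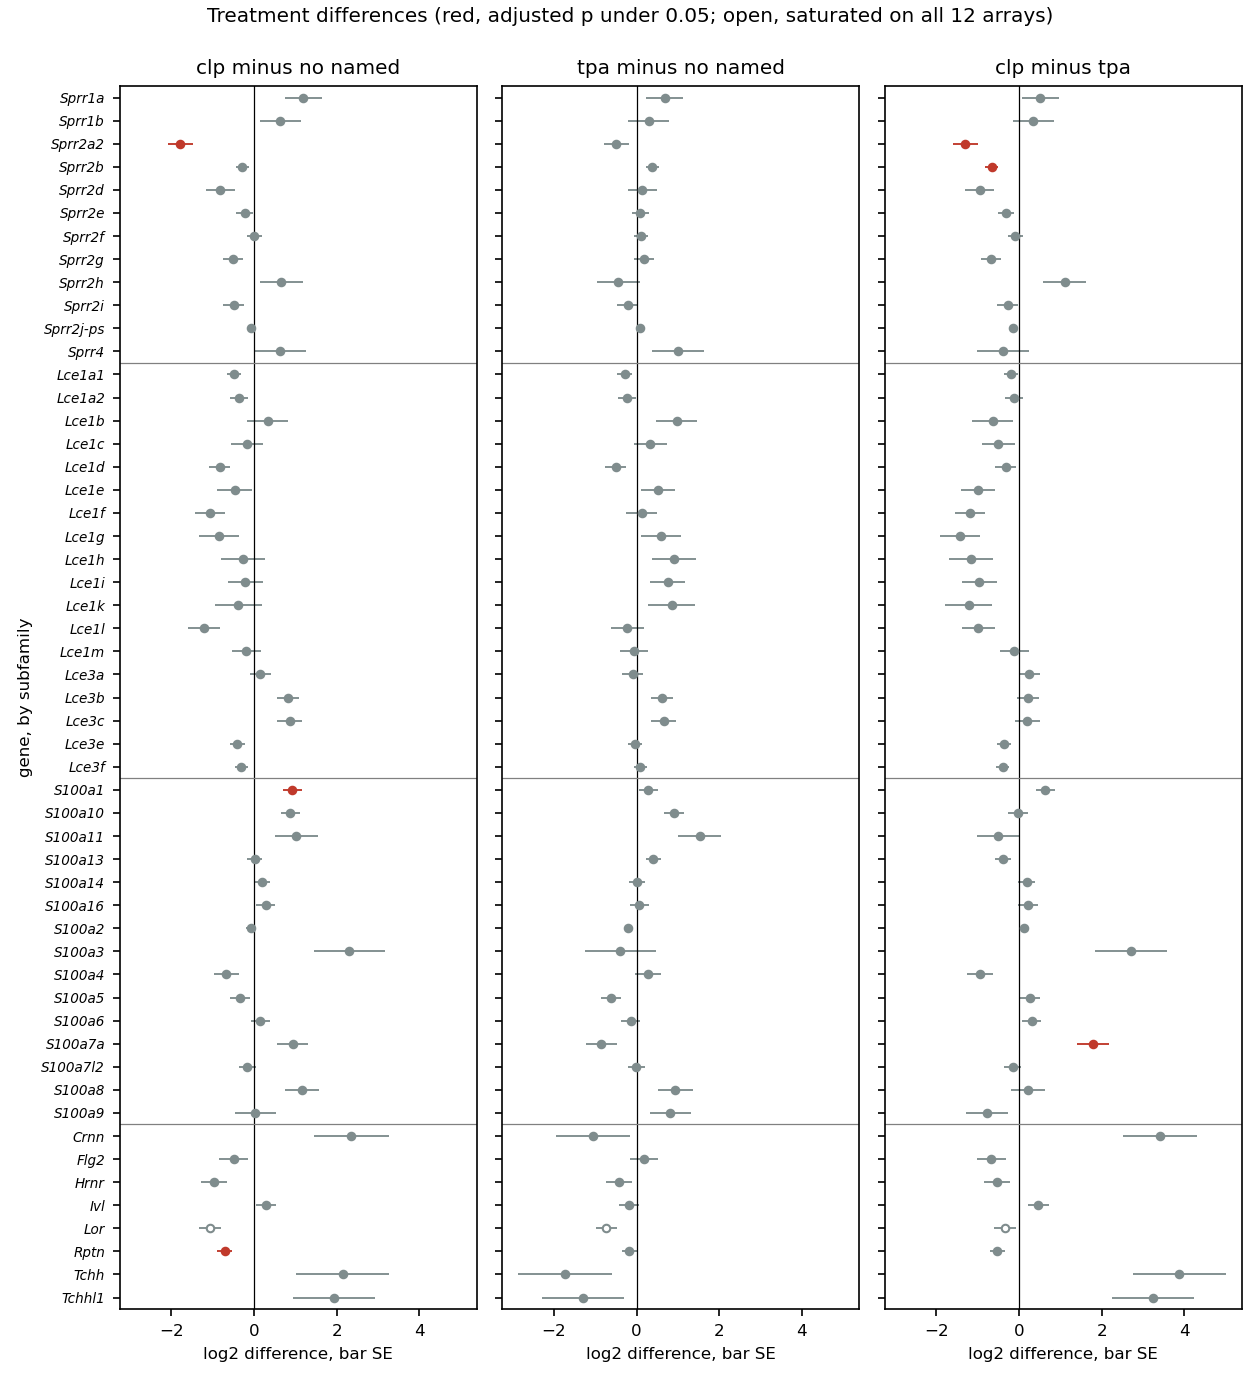
Fitted log2 difference (points) with its standard error (bars) for each tested gene in clp minus no named treatment, tpa minus no named treatment and clp minus tpa, each over 4 pairs of arrays. Red points passed an adjusted p of 0.05 (limma, over 25108 features) and open points mark Lor, saturated on all 12 arrays and drawn in grey whatever its p; in the clp minus tpa panel Tchh, Tchhl1, Crnn and S100a3 stand farthest to the right with the widest bars.

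Among the single genes, Rptn, which encodes the filament-binding protein repetin, was lower with clp. In every list of values that follows, the order within a treatment is Eng+/- 50 d, wt 50 d, Eng+/- 90 d and wt 90 d. Rptn was at 1.36, 0.65, 1.09 and 0.93 with no named treatment, 0.41, 0.29, -0.01 and 0.49 on the clp arrays, and 0.74, 0.76, 0.95 and 0.85 on the tpa arrays. All 4 clp arrays lay below all 4 arrays with no named treatment and below all 4 tpa arrays. The difference of clp from no named treatment was -0.71 ± 0.18 (SE; lower in 4 of 4 pairs; adjusted p = 0.0482, limma), and that of clp from tpa was -0.53 ± 0.18 (4 of 4 pairs lower; adjusted p = 0.109). The call was near the threshold: it was kept in 1 of the 12 fits that each left out 1 array, with differences from -0.90 to -0.53 and adjusted p from 0.043 to 0.156. The clp difference was also called with the authors' signals (-0.92) and with Cy5 alone (-1.26), and not with median centring (-0.59). Macrophage genes were lower with clp as well (5 of 7 tested passed, median difference -1.22, with Adgre1 at -1.89 ± 0.20); their part in the result was not tested.

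Lor, the bulk protein of the envelope, also read lower with clp than with no named treatment, but on saturated spots. It was at 0.21, 0.20, -0.52 and 0.18 with no named treatment, -0.74, -1.01, -0.75 and -1.72 on the clp arrays, and -0.64, -0.59, -0.52 and -1.11 on the tpa arrays. The 4 clp arrays lay below the 4 arrays with no named treatment. The test passed (adjusted p = 0.0414, limma), yet Cy5 was saturated on all 12 arrays, so no fold is given and no order of the samples was measured. It was called with the authors' signals too, on the same spots, beside 16.3% of all features. With Cy5 alone the difference was -0.14 (adjusted p = 0.553).

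Ivl, the early scaffold protein, was at -0.29, 0.25, -0.57 and -0.22 with no named treatment, 0.42, 0.30, -0.94 and 0.54 on the clp arrays, and -0.66, -0.59, -0.18 and -0.12 on the tpa arrays. The groups overlapped in each treatment comparison, and the lowest value was the Eng+/- clp array at 90 d. No difference passed: clp minus no named treatment was 0.29 ± 0.25 (adjusted p = 0.488, limma). The second Ivl probe ran in parallel (r = 0.988 over 12 arrays).

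Flg2, filaggrin-2 of the granular layer, was at 0.97, 1.51, 1.67 and 0.14 with no named treatment, 0.47, 0.38, 1.58 and -0.13 on the clp arrays, and 1.66, 1.19, 1.36 and 0.77 on the tpa arrays. Its lowest values were the wt arrays at 90 d with clp and with no named treatment, and at 90 d the Eng+/- array was higher than wt in all 3 treatments. The genotype difference over 6 pairs was 0.64 ± 0.28 (5 of 6 pairs higher; adjusted p = 0.370, limma). Hrnr, the filaggrin-like protein hornerin, was at -3.10, -1.41, -3.76 and -4.07 with no named treatment, -4.46, -4.01, -3.96 and -3.74 on the clp arrays, and -3.34, -3.47, -3.36 and -3.82 on the tpa arrays. Every array was below the pool, and wt with no named treatment at 50 d stood above the rest. As the pool held all conditions, a value below it on every array does not measure abundance, and only the differences between arrays are read. Neither gene passed in any comparison with loess. For clp, Hrnr was -0.96 with loess and was called with the authors' processed signals (-1.18) and with Cy5 alone (-1.18).

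Members linked to the hair follicle had the widest swings. Trichohyalin (Tchh), which hardens the inner root sheath, its relative Tchhl1, cornulin (Crnn), the hair cuticle protein S100a3 and S100a7a moved with the hair shaft genes, none of which is a member. Tchh was at -0.29, -0.41, -6.96 and 0.03 with no named treatment, 0.45, 1.09, -1.33 and 0.72 on the clp arrays, and -5.22, -7.11, -1.57 and -0.66 on the tpa arrays. Tchhl1 was at -1.51, 0.06, -6.14 and 0.73 with no named treatment, 1.03, 0.73, -1.13 and 0.25 on the clp arrays, and -4.75, -5.08, -2.11 and -0.13 on the tpa arrays. For both genes the 3 arrays low in hair shaft genes were at -4.75 or lower, and every other array was at -2.11 or higher. Tchh was saturated in Cy5 on all arrays but those 3, where the sample signal has only a lower limit.

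Crnn was at -1.00, 0.22, -4.98 and 0.90 with no named treatment, 2.07, 1.64, -1.03 and 1.88 on the clp arrays, and -3.90, -4.53, -1.09 and 0.46 on the tpa arrays. S100a3 was at -2.06, -0.78, -5.49 and 0.22 with no named treatment, 1.09, 0.61, -0.96 and 0.36 on the clp arrays, and -4.48, -4.89, -0.35 and 0.01 on the tpa arrays. The same 3 arrays were lowest for both, and the next array stood more than 2 log2 units above them. S100a7a, a small S100 protein of keratinocytes, was at -0.01, 0.20, -1.33 and 1.02 with no named treatment, 1.56, 1.37, -0.25 and 0.94 on the clp arrays, and -1.44, -1.67, -0.70 and 0.30 on the tpa arrays, with Cy5 not well above background on those 3 arrays, where only a bound was measured.

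**Figure D3:**
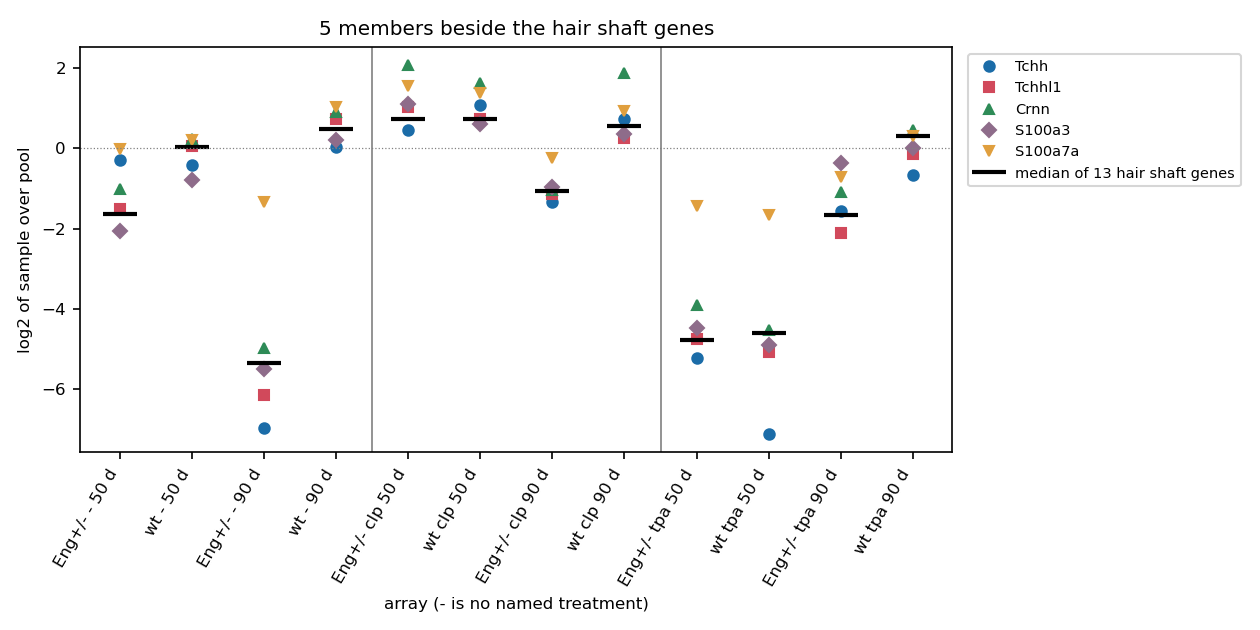
Log2 ratio of sample over pool (y) on each of the 12 arrays (x, grouped by treatment) for Tchh, Tchhl1, Crnn, S100a3 and S100a7a (symbols), with the median of 13 hair shaft genes (bars). Both tpa arrays at 50 d and the Eng+/- array with no named treatment at 90 d lie near or below -4 for all but S100a7a, and the symbols follow the bars on the other 9 arrays. Tchh was saturated in Cy5 on those 9.

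On those other 9 arrays, taken alone, Pearson's r with the median of the hair shaft genes was 0.97 for Tchhl1, 0.94 for Crnn, 0.88 for S100a7a, 0.81 for S100a3 and 0.77 for Tchh. These are descriptions over 9 arrays that share the pool and the slides. Tchh was saturated in Cy5 on all of these 9 arrays, so its r does not describe its sample signal. Tchhl1 was saturated on 5 of them and S100a3 on 4. S100a7a was higher with clp than with tpa (measured difference 1.78 ± 0.38; 4 of 4 pairs higher; adjusted p = 0.0249, limma), although the groups overlapped. As 2 of the 4 tpa arrays were not well above background, that size is not settled: it was 2.74 with median centring, 2.56 with Cy5 alone and 4.00 with the authors' signals. Without the 3 arrays low in hair shaft genes, its difference was 0.55 (adjusted p = 0.523). Crnn was 3.41 ± 0.90 higher with clp than with tpa (4 of 4 pairs; adjusted p = 0.0508, limma). Tchh was higher as well (adjusted p = 0.0677), but it was saturated on all 4 clp arrays and on 2 of 4 tpa arrays, so no fold is given. Neither passed with loess. With median centring Tchh, Tchhl1, Crnn, S100a3 and S100a7a were all called for clp minus tpa, and with Cy5 alone Crnn and S100a7a were. Tchh, Tchhl1, Crnn and S100a3 were all positive in clp minus no named treatment, in clp minus tpa and in 90 d minus 50 d with tpa under all 4 scalings. In tpa minus no named treatment all 4 were negative with loess, and 1 was positive with median centring.

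Lce1 genes, which code for envelope proteins of the normal surface, moved together. Over the 12 arrays the 78 pairs of the 13 Lce1 genes had a median r of 0.73 (range 0.18 to 0.98). Their median was lowest on Eng+/- clp at 50 d (-1.38), wt clp at 90 d (-1.13) and wt with no named treatment at 90 d (-1.07), and on the other 9 arrays it ran from -0.51 to 0.32. The 2 with the widest range were Lce1k and Lce1h. Lce1k was at -1.24, -0.28, 0.35 and -2.74 with no named treatment, -1.91, -0.89, -0.88 and -1.74 on the clp arrays, and 0.17, -0.32, 0.00 and -0.37 on the tpa arrays. Lce1h was at -0.98, -0.34, 0.57 and -2.52 with no named treatment, -1.38, -0.92, -0.42 and -1.61 on the clp arrays, and 0.21, 0.07, 0.18 and -0.10 on the tpa arrays. Both were lowest on the wt array with no named treatment at 90 d and highest on the Eng+/- array of the same treatment and day, and their values correlated at r = 0.98 over 12 arrays. On the 4 tpa arrays each varied by less than 0.6.

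The narrowest of the subfamily, Lce1a2, was at -0.18, -0.01, -0.04 and -1.05 with no named treatment, -0.51, -0.81, -0.36 and -1.03 on the clp arrays, and -0.55, -0.53, -0.42 and -0.71 on the tpa arrays. It overlapped in all treatment comparisons, was saturated on 9 of 12 arrays, and its second probe followed it loosely (r = 0.44). All 13 Lce1 genes were lower with clp than with tpa under loess and median centring (12 with Cy5 alone, 10 with the authors' processed signals). The median difference was -0.96, against 0.05 over all features. None passed with loess: the smallest adjusted p was 0.0841 (limma) for Lce1f, which was saturated on all 4 tpa arrays and on 0 clp arrays. Its measured difference was -1.19 with loess, -1.06 with median centring, -1.02 with the authors' signals and -1.36 with Cy5 alone, so the size is not settled. Against no named treatment 12 of 13 were lower with clp under loess, but 4 of 13 with median centring.

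Lce3 genes, the wound-linked group, did not all move together. Lce3b and Lce3c ran in parallel (r = 0.99 over 12 arrays) between -2.04 and 0.18, with their lowest values on wt with no named treatment at 90 d and their highest on Eng+/- clp at 50 d. Lce3e and Lce3f stayed between -0.73 and 0.72, highest on Eng+/- with no named treatment at 50 d, and Lce3a ran from -1.24 to 0.43. The spots of Lce3e and Lce3f were dim (Cy5 signal of 85 to 1114 and of 96 to 674), so the size of that span is not settled. Their clp minus tpa was -0.37 and -0.40 with loess, and -1.09 and -1.23 with the authors' signals. Over 12 arrays the r of Lce3a with the hair shaft genes was 0.66. It was -0.14 for Lce3e, -0.05 for Lce3f, 0.37 for Lce3b and 0.27 for Lce3c. By likeness over 12 arrays, the member nearest to Lce3e was Sprr2g (r = 0.97), then Lce3f (0.96). With loess no Lce gene was called in any comparison. For clp minus tpa Lce3e and Lce3f were called lower with median centring and Lce1f with Cy5 alone, and for clp Lce1l was called lower with Cy5 alone.

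**Figure D4:**
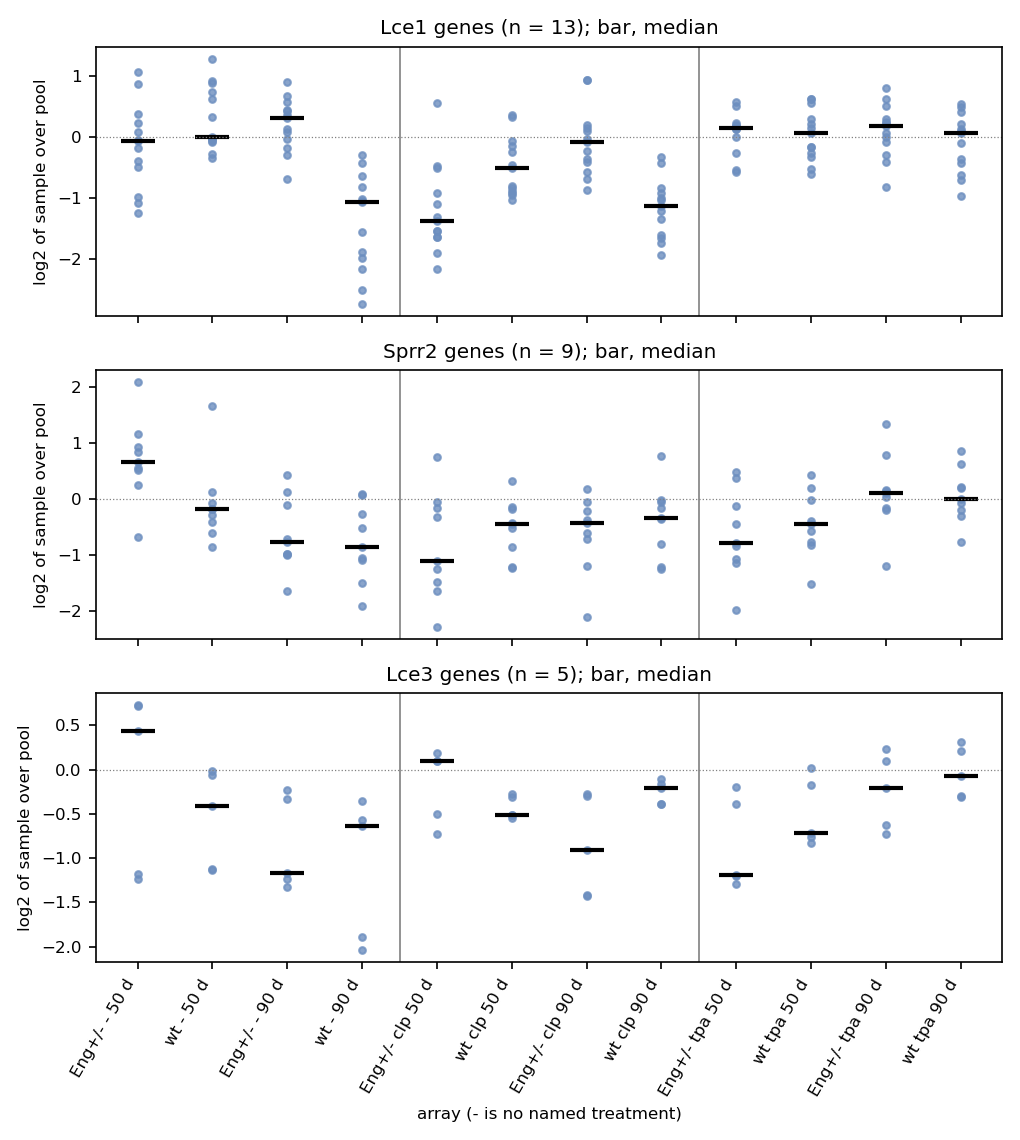
Log2 ratio of sample over pool (y) for each Lce1, Sprr2 and Lce3 gene (points) and their median (bars) on the 12 arrays (x, grouped by treatment). Lce1 medians sit lowest on 3 arrays at -1.38 to -1.07, and the Sprr2 median is highest at 0.66 on Eng+/- with no named treatment at 50 d.

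Sprr2 genes, crosslinked bridging proteins, also moved together, with a median r of 0.74 over 36 pairs of 9 genes (range -0.42 to 0.95). Sprr2h was the member out of step: its r with the hair shaft genes over 9 arrays was 0.64, where the median of the subfamily was -0.69. The Sprr2 median was 0.66 on Eng+/- with no named treatment at 50 d and between -1.11 and 0.10 elsewhere. Over 12 arrays the Sprr2 genes had a median r of 0.80 with the median of the stress keratins tested (Krt6a, Krt6b and Krt16), which mark activated keratinocytes, and that median was likewise highest on the same array, at 1.74.

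Sprr2a2 had the largest difference of the subfamily. It was at 2.08, 1.66, 0.13 and 0.06 with no named treatment, -1.47, -0.15, -0.37 and -1.22 on the clp arrays, and 0.37, 0.20, 0.79 and 0.63 on the tpa arrays. All clp arrays lay below all arrays with no named treatment and below all tpa arrays, and the highest values were those at 50 d with no named treatment. The measured difference was -1.79 ± 0.31 against no named treatment (4 of 4 pairs lower; adjusted p = 0.0195, limma) and -1.30 ± 0.31 against tpa (4 of 4 pairs; adjusted p = 0.0353). Cy5 was saturated on 3 of 4 arrays with no named treatment, 3 of 4 tpa arrays and no clp array, so the size of both differences is not settled. Against no named treatment it was -1.75 with the authors' signals and -1.27 with Cy5 alone, both called, and -0.96 with median centring, not called. Sprr2a1 and Sprr2a3 are near-identical copies, and the probe may read their transcripts too. A second Sprr2a2 probe that was tested (above background on 7 arrays) ran from -0.39 to 0.17 with overlapping groups, and its r with the first was 0.65; another, saturated on all 12 arrays and left out for an outlier spot, had an r of 0.15 over 11 arrays.

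Sprr2b was at 0.92, 0.12, 0.43 and 0.09 with no named treatment, -0.05, 0.33, 0.18 and -0.02 on the clp arrays, and 0.48, 0.42, 1.33 and 0.86 on the tpa arrays. The 4 clp arrays lay below the 4 tpa arrays, and both Eng+/- arrays with no named treatment were within the tpa range. The clp minus tpa difference was -0.67 ± 0.16 (4 of 4 pairs; adjusted p = 0.0397, limma). It was -1.06 with median centring and -1.02 with Cy5 alone, both called, and -1.46 with the authors' signals, not called. The Sprr2b spots were dim, with a Cy5 signal of 98 to 178 on the clp arrays, so that size is not settled. Cy5 was not well above background on wt with no named treatment at 90 d. Under all 4 scalings 8 of 9 Sprr2 genes were lower with clp than with tpa (all features 0.03 to 0.06). Their median was -0.32 with loess, -0.91 with median centring, -1.13 with the authors' signals and -1.02 with Cy5 alone. The exception was Sprr2h, at 1.10 with loess. The pseudogene Sprr2j-ps had the narrowest range, at 0.26, -0.07, -0.11 and -0.26 with no named treatment, -0.16, -0.17, -0.05 and -0.06 on the clp arrays, and -0.13, -0.02, 0.10 and 0.21 on the tpa arrays, and its treatment groups overlapped. Its Cy5 signal was only 74 to 242 and was not well above background on Eng+/- clp at 50 d and wt with no named treatment at 90 d. Near that floor the size of its range is not settled: clp minus tpa was -0.15 with loess and -0.90 with the authors' signals.

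Sprr1a, the proline-rich envelope precursor known for strong induction by injury, was at -2.59, -1.45, -0.82 and -1.60 with no named treatment, 0.70, -0.23, -2.12 and -0.07 on the clp arrays, and -1.73, -1.22, -0.43 and -0.37 on the tpa arrays. Its lowest value was Eng+/- with no named treatment at 50 d and its highest Eng+/- clp at 50 d, and the groups overlapped. In clp minus no named treatment it was 1.19 ± 0.45 (3 of 4 pairs higher; adjusted p = 0.130, limma), and in tpa minus no named treatment 0.68 ± 0.45 (4 of 4 pairs higher; adjusted p = 0.351). Cy5 was saturated on 2 clp arrays, 2 tpa arrays and 1 array with no named treatment, so both sizes are not settled. With Cy5 alone they were 0.46 for clp and 0.28 for tpa. Sprr1b ran from -3.17 to -0.40 and Sprr4 from -1.81 to 1.11. With Sprr1a they were higher with clp and with tpa than with no named treatment under all 4 scalings. None of the 3 passed with loess, and Sprr1a passed for clp with median centring (1.85).

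S100a8 and S100a9, whose proteins form the dimer calprotectin of neutrophils and activated keratinocytes, stayed mostly below the pool. S100a8 was at -0.69, -2.64, -2.26 and -3.87 with no named treatment, -0.90, -1.28, -1.81 and -0.84 on the clp arrays, and -2.12, -2.33, -0.56 and -0.69 on the tpa arrays. S100a9 was at 0.69, -2.39, -1.74 and -3.54 with no named treatment, -1.86, -1.85, -1.71 and -1.43 on the clp arrays, and -1.56, -1.73, -0.09 and -0.34 on the tpa arrays. Both were lowest on wt with no named treatment at 90 d, where they stood at -3.87 and -3.54, and S100a9 was above the pool on a single array, Eng+/- with no named treatment at 50 d. They correlated at r = 0.82 over 12 arrays. In 90 d minus 50 d both were positive with tpa and negative with no named treatment under all 4 scalings, and neither comparison passed (smallest adjusted p = 0.713, limma). The median of 8 neutrophil genes was between -0.49 and -0.08 over the arrays. Among the 10 neutrophil genes on the array, 6 exceeded background on all 12 arrays and Ngp on 0, and Retnlg ran from -2.75 to -0.32. Their part in the values of S100a8 and S100a9 was not tested.

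S100a1, a calcium sensor best known from muscle, was at -2.02, -1.45, -1.31 and -1.81 with no named treatment, -0.42, -0.78, -1.27 and -0.42 on the clp arrays, and -1.56, -1.44, -1.20 and -1.23 on the tpa arrays. The 4 clp arrays lay above the 4 arrays with no named treatment, by a narrow gap at Eng+/- 90 d. The difference was 0.92 ± 0.23 (4 of 4 pairs higher, from 0.04 to 1.60; adjusted p = 0.0454, limma). The difference was also called with the authors' signals (0.93) and Cy5 alone (0.87), and not with median centring (1.44). The second S100a1 probe ran in parallel (r = 0.96), but its groups overlapped. On that probe Eng+/- at 90 d was at -0.79 with clp and -0.40 with no named treatment, and the other pairs were higher with clp. The call was kept in 2 of the 12 fits that each left out 1 array. The median difference of the skeletal muscle genes with clp was -0.52, and 0 of 6 passed. S100a2, of basal keratinocytes, had the narrowest range of the S100a genes, at 0.07, -0.07, -0.27 and 0.05 with no named treatment, -0.16, -0.03, -0.19 and -0.13 on the clp arrays, and -0.31, 0.05, -0.42 and -0.33 on the tpa arrays, with overlapping groups. Its clp difference was -0.07 with loess and 0.68 with Cy5 alone, where it was called, beside 24.7% of all features. The direction is therefore not settled. S100a10, the annexin partner, was higher with clp (measured difference 0.88 ± 0.24; 4 of 4 pairs; adjusted p = 0.0546, limma) and was called for clp with median centring and with the authors' signals. Cy5 was saturated on 2 of 4 clp arrays and on 1 array with no named treatment, so that size is not settled: it was 0.42 with Cy5 alone. S100a10 was saturated on all 4 tpa arrays and on 1 array with no named treatment, so no fold is given for tpa (adjusted p = 0.0861 with loess; called with median centring). Of the remaining S100a genes, S100a5 and S100a13 were below the pool and S100a14 and S100a16 above it on all 12 arrays, while S100a4, S100a11 and S100a7l2 lay on both sides. S100a6 read below the pool on all 12 arrays, but its Cy5 was saturated on 9, where the sample signal has only a lower limit. As the pool held all conditions, values on the same side of it on every array do not measure abundance.

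The partners of the complex, 27 genes for transglutaminases, envelope proteins, proteases and lipid enzymes, were read beside the members. Of 25 tested, 0 were higher and 2 lower with clp. These were Casp14 (-1.11 ± 0.27; adjusted p = 0.0437, limma), a caspase that processes filaggrin, and Klk5 (-0.87 ± 0.20; adjusted p = 0.0375), a protease of shedding. In clp minus tpa 1 was higher and 0 lower: Gjb2, a gap junction gene, at 2.85 ± 0.68 (3 of 4 pairs; adjusted p = 0.0374). Gjb2 was at -4.40 to -4.05 on the 3 arrays low in hair shaft genes, of which 2 are tpa arrays, and at -1.12 to 1.73 on the others; their part in the call was not tested. In tpa minus no named treatment, in the genotype comparison and in the 3 day comparisons limma called 0 of the 25.

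Between the days, members without named treatment were mostly lower at 90 d and those with tpa mostly higher, but no member passed with loess. Each day comparison rests on 2 pairs of arrays. Without named treatment 46 of 53 were lower at 90 d with loess (median -0.52, all features -0.01) and 29 of 53 with median centring. All 18 Lce genes were lower in the fit over both genotypes with loess, with the authors' processed signals and with Cy5 alone, and 10 of 18 with median centring. For Lce1 the 2 pairs went opposite ways. With loess the Lce1 median went from -0.06 at 50 d to 0.32 at 90 d in Eng+/-, and from -0.01 to -1.07 in wt. The Lce3 median went from 0.43 to -1.17 in Eng+/- and from -0.42 to -0.64 in wt. Of 12 Sprr genes, 10 were lower (9 with median centring), among them Sprr2a2 at -1.77 ± 0.43, Sprr2d at -1.56 ± 0.50 and Sprr2i at -1.53 ± 0.36. Hrnr was at -1.66 ± 0.45. All of these had an adjusted p of 0.836 by limma.

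With tpa all 12 Sprr genes were higher at 90 d under all 4 scalings (median 0.70, all features 0.01). With median centring 6 members passed there, all higher at 90 d (S100a3, Tchh, S100a7a, Tchhl1, Crnn and Sprr2b), beside 0.976% of all features. The hair shaft genes had a median difference of 3.58 in the same comparison, with both tpa arrays at 50 d low in them; their part in these calls was not tested. With clp 27 members were higher and 26 lower. With loess limma called 0 members in each of these comparisons, and 0% of all features were called in each. At an unadjusted p under 0.05 there were 14 members without named treatment (26.4%, beside 5.48% of all features), 0 with clp (beside 12.6%) and 9 with tpa (17%, beside 5.76%). The test that the day difference varied among treatments likewise called 0 members and 0% of all features, with 21 members at an unadjusted p under 0.05 (39.6%, beside 13.6% of all features) and a smallest adjusted p of 0.222 (Sprr2f). With median centring it called 5 members, beside 1.25% of all features.

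Genotype gave no call in the fit over 6 pairs: limma called 0 of 53 members and 0% of all features, with 4 members at an unadjusted p under 0.05 (7.55%, beside 13.3% of all features). With median centring 1 member was called, S100a7a, lower in Eng+/-, beside 0.884% of all features. All 13 Lce1 genes were higher in Eng+/- with loess (median 0.24, all features -0.01) and with median centring (median 0.48, all features 0.11), and 12 with the other 2 scalings. Tchh, Tchhl1, Crnn and S100a3 were lower under all 4 scalings and in 4 of 6 pairs each with loess. Their differences were -1.86 to -1.30 with loess, -1.71 to -0.96 with median centring, -1.93 to -1.39 with the authors' signals and -1.93 to -0.43 with Cy5 alone. None of the 4 passed, and Tchh was saturated in Cy5 on 9 of the 12 arrays, so its direction within pairs and its size are not settled. The change of the genotype difference between the days had its smallest p for Crnn (-3.39 ± 0.47 at 90 d against 50 d; adjusted p = 0.0768, limma), and 0 members and 0% of all features passed, with 17 members at an unadjusted p under 0.05 (32.1%, beside 3.58% of all features) and 2 residual degrees of freedom. With median centring 4 members were called there, beside 0.585% of all features.

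Within single pairs, genes were counted at 2-fold or more, the cutoff that the series text names, with 1 array per genotype and no test. Without named treatment at 50 d, 4 members were higher in Eng+/- (S100a8, S100a9, Sprr2d, Sprr2i; background 0.506% of all features) and 8 lower (4.04%), among them Sprr1a, Sprr4 and Hrnr. In the same treatment at 90 d, 16 were higher (5.48%), 10 of them Lce1 genes, and 6 lower (4.35%), of which Tchh, Tchhl1, Crnn, S100a3 and S100a7a are the hair-linked genes. Lce1k and Lce1h led, at 3.10 and 3.09, and the wt array of that pair was the lowest of all 12 for both.

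With clp the Lce1 genes lay the other way at the earlier day. At 50 d 2 members were higher (1.29%) and 8 lower (0.546%), of which 6 were Lce1 genes. At 90 d 10 were higher (2.06%), 8 of them Lce1 genes, and 12 lower (4.9%), with Sprr1a, Sprr1b, Sprr2h, Sprr4 and the hair-linked genes among them. Of these, Tchh was saturated in Cy5 on both arrays of the pair, so a 2-fold difference of the samples was not measured for it. The tpa pairs were the most alike: 1 higher (Tchh; 0.207%) and 1 lower (Sprr1b; 0.231%) at 50 d, and 0 higher (0.183%) and 3 lower (1.29%) at 90 d, the 3 being Crnn, Tchhl1 and S100a7a.

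**Figure D5:**
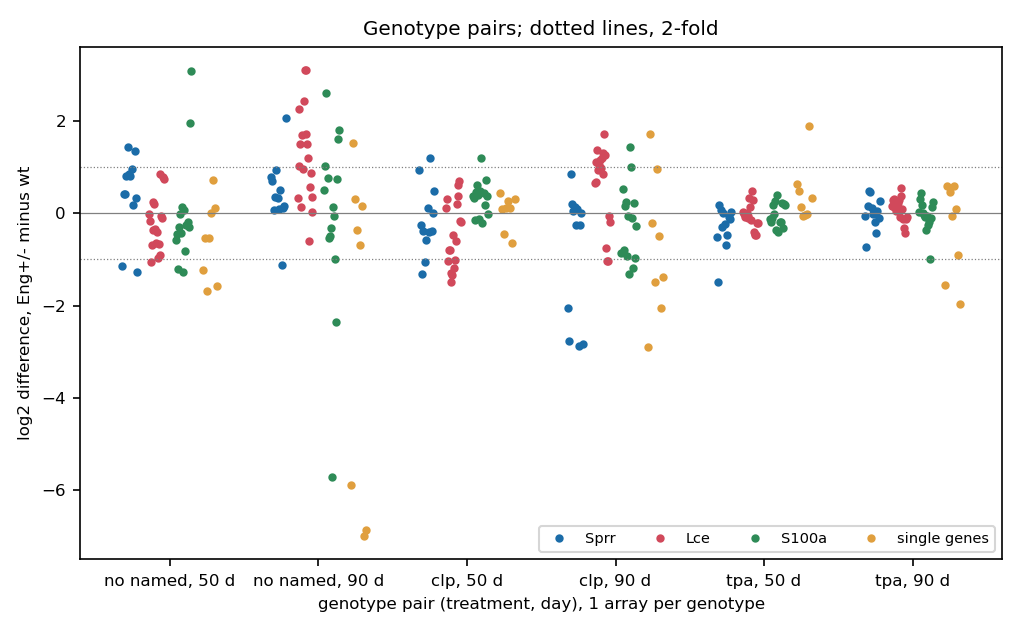
Log2 difference of Eng+/- minus wt (y) for each tested gene in each of the 6 pairs of arrays (x), coloured by subfamily, with dotted lines at 2-fold. The Lce points lie mostly above 0 with no named treatment at 90 d and below 0 with clp at 50 d, and in the tpa pairs the points beyond 2-fold are Tchh, Sprr1b, Crnn, Tchhl1 and S100a7a.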

How the data were processed

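RNA from the 12 samples (Cy5) and a pool of all conditions (Cy3) was hybridized to 2-colour Agilent mouse arrays, 1 array per condition, and the precision is limited by that number. Feature Extraction made the deposited files, in version 10.7.3.1 per the file headers and 10.0 per the submitters' processing notes. The deposited spot values are median intensities of foreground and local background, with processed intensities that are background-subtracted and dye-normalized per the file headers. The deposited log10 ratios are of processed Cy5 over processed Cy3; the authors' value table held the same numbers (largest difference 0).

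From the median intensities, background was corrected with normexp (offset 50) and ratios were normalized by loess within each array in limma 3.58.1 (R 4.3.3), with no normalization between arrays. Control spots had weight 0, outlier spots were left out (975 probes lost) and spots of a probe were averaged. A probe was tested if Cy5 was well above background on at least 2 arrays, and the brightest probe stood for its gene, leaving 25108 features. Probes were named by accession through RefSeq (27234 of 39429). The model held genotype and 6 combinations of treatment and day (5 residual degrees of freedom), with eBayes (trend) and Benjamini-Hochberg adjustment over all features at 0.05. No condition has a second array, so p-values measure the spread left after genotype and condition, which may be technical. A second model held all 2-way interactions. The code was tested on simulated data.

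The members and gene lists were chosen with earlier results of these data known. Values on every array are given for the single genes, for members called in a comparison, for the 2 widest and the narrowest member of Sprr, Lce and S100a, and for S100a8 and S100a9; other members and list genes appear by range, count or as examples. Alternatives were other scalings, filters, probe rules and sets of arrays.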

Additional observations from a re-analysis of the deposited data

How the results depend on the processing

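No member called with loess changed direction under an alternative. The median difference over the members did for clp, at -0.16 with loess and 0.40 with median centring. That for the day with clp did too, at 0.01 with loess and -0.07 with the authors' signals. With 1 array left out at a time the median took both signs for 3 comparisons. It ran from -0.28 to 0.02 for clp, -0.02 to 0.15 for genotype and -0.12 to 0.08 for the day with clp. With loess 4 members were called for clp, 3 for clp minus tpa and 0 elsewhere. With median centring the calls were 8 for clp, 9 for clp minus tpa, 2 for tpa, 1 for genotype, 6 for the day with tpa, 5 for day by treatment and 4 for genotype by day, and the median over members for tpa was 0.68, against 0.09 with loess. With the authors' processed signals 7 were called for clp and 0 for clp minus tpa, and with Cy5 alone 7 and 6. With no filter on dim probes 2 were called for clp, and with both channels above background on all arrays 1 for clp minus tpa. Without wt at 50 d with no named treatment and wt clp at 90 d, 0 were called for clp and 0 for clp minus tpa; without both tpa arrays at 50 d, 1 and 0, with a median over members of 0.72 for tpa. Without the 3 arrays low in hair shaft genes, an alternative chosen after seeing the data, 0 were called for clp minus tpa and the median for tpa was 0.71. Leaving out members saturated on all arrays, also chosen after seeing the data, left 3 called for clp and 3 for clp minus tpa. For the filters and the sets of arrays the share of all features called was not counted, so those counts have no background beside them.

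Leaving out 1 array at a time, with the lone arrays assumed to vary alike, gave 0 to 8 calls for clp, 0 to 13 for tpa (13 without Eng+/- at 90 d with no named treatment), 0 to 10 for clp minus tpa, 0 to 3 for the day without named treatment, 0 to 3 for the day with tpa, 0 to 4 for day by treatment, 1 to 8 for genotype by day, and 0 for genotype and for the day with clp. The call of Sprr2a2 for clp was kept in 10 of these 12 fits (lost without Eng+/- at 50 d with no named treatment and without wt clp at 90 d), Sprr2a2 and S100a7a for clp minus tpa in 6 each, Sprr2b in 5, S100a1 and Lor in 2, and Rptn in 1. The share of all features called was not counted in these fits, so the member counts have no background beside them. The cause of these changes was not tested. The count of members 2-fold apart in genotype pairs was 71 in all and stayed within 1.5 times of that under the other scalings. The labels give no replicate numbers, so arrays could not be paired by animal or culture. Genotype pairs were matched by treatment and day through the condition term. Saturated spots and single arrays per condition limit what the fits can show.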
